A study of Rattus norvegicus with 30 samples.

Results

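The peptide transmitters of sensory neurons were followed as 10 genes, Gal, Npy, Vip, Adcyap1, Tac1, Calca, Calcb, Sst, Cck and Nts. All probes whose gene name in the array files was one of these were taken, which gave 14 of the 41012 non-control probes, under 10 of 35287 names. Gal, Npy, Vip, Tac1, Calcb, Sst and Cck had 1 probe each, Adcyap1 and Nts had 2, and Calca had 3. The arrays were 30 single-colour Agilent rat arrays of adult male Sprague-Dawley rats, 15 of the L4-6 dorsal root ganglia (DRG), which hold the cell bodies of the sensory neurons, and 15 of the proximal stump of the sciatic nerve (SN), which holds their axons beside Schwann cells and connective tissue. The left sciatic nerve was cut by removing a short segment in the thigh. Tissue was taken at 0, 1, 4, 7 and 14 d after this resection, with 3 arrays per tissue and day, and the 0 d arrays were the control. Per the labels the animals formed 5 groups of 6 rats, and how many rats one array holds was not stated, so p-values measure the spread between arrays.

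Neuropeptides are cut from larger precursors in the secretory pathway, stored in dense-core vesicles and released from axon terminals, where they act on G protein-coupled receptors. In uninjured ganglia, small sensory neurons are known for substance P (from Tac1), calcitonin gene-related peptide (CGRP, from Calca and Calcb) and, in a subset, somatostatin (Sst). After a peripheral nerve is cut, sensory neurons are known to turn to other peptides, among them galanin (Gal), neuropeptide Y (Npy), vasoactive intestinal peptide (Vip) and pituitary adenylate cyclase-activating polypeptide (PACAP, from Adcyap1). Cholecystokinin (Cck) and neurotensin (Nts) are better known from the gut and brain.

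The probe sequences show what each signal reports, and those of Nts, Sst and the calcitonin family are given because the results below depend on which stretch of the transcript was measured. Coordinates are of build rn4, as annotated in the array files. The first probe of Nts lies in the coding stretch where neuromedin N and neurotensin adjoin (chr7:40474898-40474957, minus strand), and the capitals mark the codon pair between both peptides.
Nts probe A_44_P1030165: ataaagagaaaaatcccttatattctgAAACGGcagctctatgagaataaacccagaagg
The Sst probe crosses the end of the coding sequence (chr11:79126027-79126086, plus strand), and the capitals mark the last codon of somatostatin and the stop codon.
Sst probe A_44_P242103: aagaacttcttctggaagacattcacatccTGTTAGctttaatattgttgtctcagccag
Calca makes calcitonin or CGRP by alternative splicing. Its probe at chr1:172689248-172689307 (minus strand) is annotated to 3 RefSeq transcript variants of the gene, its probe at chr1:172688290-172688349 to RefSeq variant 1 alone, and its probe at chr1:172686316-172686443 to an Ensembl transcript. These 3 are called the shared, the variant 1 and the Ensembl transcript probe. Calcb, the neighbouring gene for the beta form of CGRP, has its probe at chr1:172780746-172780805 on the plus strand. For the last 3 of the following lines the first 30 bases are shown.
Calca shared probe A_44_P106221: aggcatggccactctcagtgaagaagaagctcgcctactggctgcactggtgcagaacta
Calca variant 1 probe A_43_P11924: ttggcaactaggtccctcctctcctttcca
Calca Ensembl transcript probe A_44_P527089: gttggctattgtgcatcgtgttgtatgtga
Calcb probe A_44_P160841: ggacgatgtgtatgtttgcatcctgaaaga
At the best ungapped offset the Calca probes matched the Calcb probe at 18, 20 and 20 of 60 bases. The probes were compared only with each other and not with the transcript of the other gene. Cross-hybridization between the 2 genes was therefore not tested.

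Values are normalized signals, the log2 processed intensity of a probe minus the 75th percentile of its array, so that 0 is a signal at that percentile. Levels are compared between arrays for one probe, never between probes. A probe was called changed at a Benjamini-Hochberg adjusted p under 0.05 in limma together with a fold change over 2, and "rose" and "fell" are used of called changes. An array had 26914 to 35541 probes well above background, and every 0 d array had fewer (26914 to 32587 in DRG, 30220 to 31303 in SN) than every later array of its tissue (33663 to 35541 and 33049 to 35152). The median change of all tested probes from 0 d was 0.08 to 0.14 in DRG and 0.11 to 0.16 in SN. All 0 d arrays were scanned on a day of their own and lie on slides of their own, so that 0 d, slide and scan day cannot be told apart. DRG 0 d replicates 2 and 3 share a slide with no SN array and had the fewest such probes. All 4 comparisons of a tissue with 0 d share the same 3 control arrays. In bulk tissue, fewer cells of a type and less RNA per cell cannot be told apart.

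In the ganglia, 6 of the 10 peptide genes rose and none fell past 2-fold. Gal, Vip and Adcyap1 rose from 1 d, and Npy, Cck and Nts from 4 d, and all of them were still raised at 14 d. At 1 d 4 of the 14 member probes were called, against 7.60% of the 34968 tested probes. At 4, 7 and 14 d it was 8 of 14 member probes on each day, all higher, against 6.55%, 6.91% and 13.5% of all tested probes. No member probe was called lower on any day by limma. At an unadjusted p under 0.05 in limma, 0, 4, 5 and 5 member probes were lower on the 4 days, and the methods' t-test with a 2-fold limit called 0 lower. The median change of the 14 probes was 0.21, 1.66, 1.88 and 1.85 on the 4 days, against medians of all tested probes of 0.09, 0.14, 0.08 and 0.13.

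**Figure D1:**
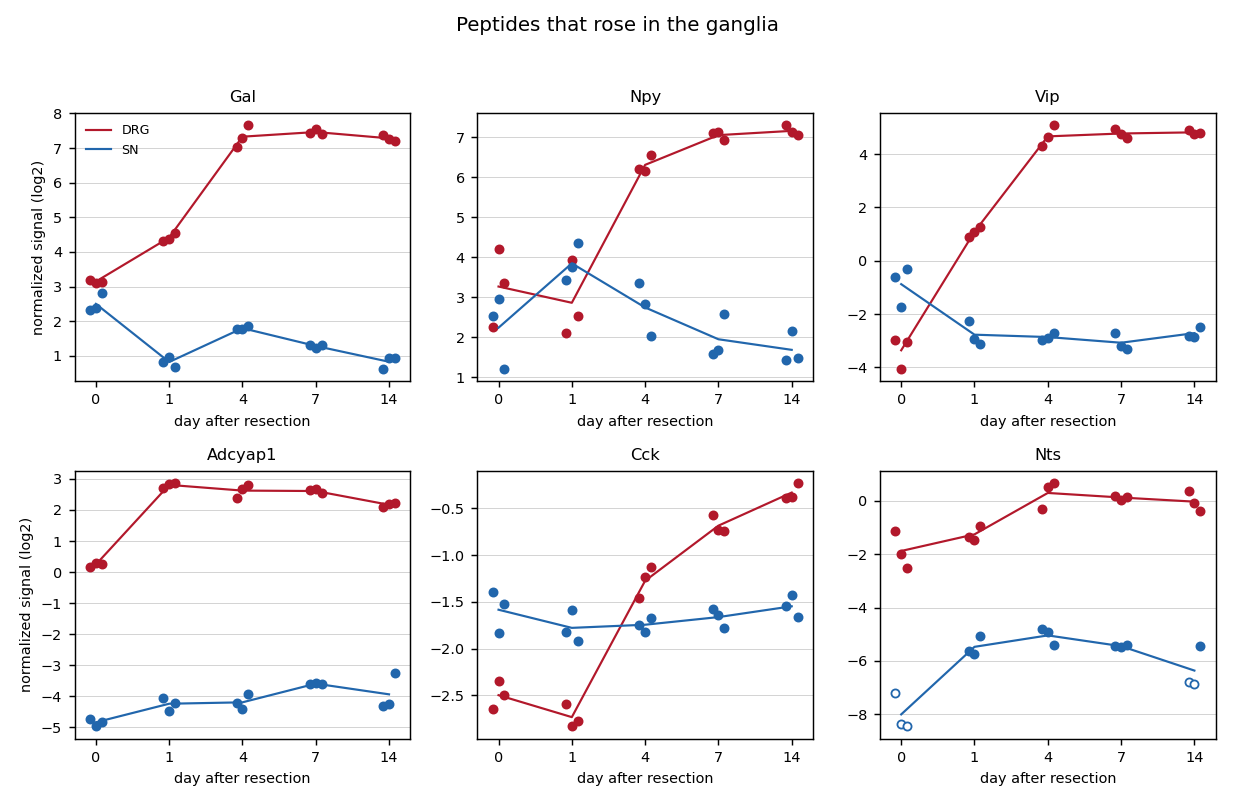
Normalized signal (log2, vertical) against day after resection (horizontal) for 6 peptide genes, DRG in red and SN in blue; points are single arrays, lines join group means, and open points are arrays where the probe was not well above background. In DRG the 3 arrays of Vip at 14 d lie between 4.75 and 4.92, against -4.05 to -2.97 at 0 d, while in SN its later arrays lie below those of 0 d.

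Vip, whose peptide relaxes smooth muscle and dilates vessels, had the largest change of the members. Its DRG signal was -2.97, -4.05 and -3.07 at 0 d, 0.89, 1.09 and 1.28 at 1 d, 4.29, 4.63 and 5.08 on day 4, 4.96, 4.75 and 4.61 at 7 d, and 4.92, 4.75 and 4.78 at 14 d. All later arrays lay above all 0 d arrays, and those of 4 d onward above those of 1 d. Vip thus rose by 4.45 on the log2 scale at 1 d (SE 0.26, 21.8-fold, adjusted p = 5.54e-07) and by 8.03, 8.13 and 8.18 at 4, 7 and 14 d (261-, 281- and 290-fold, highest adjusted p = 1.53e-09). From 1 d to 4 d it rose 12.0-fold further, by 3.58. With normexp background correction and quantile normalization the 4 changes were smaller, 3.56, 7.13, 7.26 and 7.27, and all calls remained.

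Gal, whose peptide galanin acts on 3 galanin receptors, was already bright in the uninjured ganglia. Its DRG signal was 3.20, 3.11 and 3.13 at 0 d, 4.33, 4.37 and 4.55 at 1 d, 7.03, 7.29 and 7.66 on day 4, 7.43, 7.56 and 7.39 at 7 d, and 7.37, 7.27 and 7.21 at 14 d. The arrays of 0 d, 1 d and the later days formed 3 ranges without overlap. Gal rose by 1.27 at 1 d (SE 0.13, 2.41-fold, adjusted p = 5.85e-05) and by 4.18, 4.32 and 4.14 at 4, 7 and 14 d (18.2-, 19.9- and 17.6-fold). The step from 1 d to 4 d was 2.91, 7.54-fold. Gal, Vip and both Adcyap1 probes kept their call on all 4 days under all 20 alternatives tried for each.

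Adcyap1, which encodes PACAP, reached its level within 1 d. Its probe A_44_P142168 measured 0.18, 0.30 and 0.25 at 0 d, 2.72, 2.84 and 2.87 at 1 d, 2.39, 2.68 and 2.81 on day 4, 2.63, 2.67 and 2.53 at 7 d, and 2.09, 2.18 and 2.23 at 14 d. The later arrays all lay above 0 d, and those of 14 d were the lowest of them. The changes were 2.57, 2.38, 2.37 and 1.93 (SE 0.10; 5.92-, 5.21-, 5.16- and 3.80-fold; adjusted p from 1.54e-08 to 1.21e-07). The other Adcyap1 probe, A_44_P522701, gave 2.08, 2.22, 2.19 and 1.85 (SE 0.12), changes of like size. From 7 d to 14 d the first probe differed by -0.44, which did not pass the test (adjusted p = 0.0763).

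Npy, whose peptide is best known as a cotransmitter of sympathetic neurons, spread more between arrays before 4 d than the other members. Its DRG signal was 2.25, 4.20 and 3.36 at 0 d, 2.11, 3.94 and 2.54 at 1 d, 6.22, 6.16 and 6.56 on day 4, 7.11, 7.13 and 6.94 at 7 d, and 7.31, 7.14 and 7.05 at 14 d. The arrays of 0 d and 1 d overlap, and those of 4 d onward lie above both. The change at 1 d was -0.41 (SE 0.46, adjusted p = 0.586), and Npy then rose by 3.05, 3.79 and 3.90 at 4, 7 and 14 d (8.26-, 13.8- and 14.9-fold; adjusted p = 0.000769, 0.000148 and 8.87e-05). From 1 d to 4 d it rose by 3.45. Against 0 d replicate 1 alone, the other 0 d arrays left out, the 3 changes were 4.07, 4.81 and 4.92. The 4 d call was lost in the methods' t-test after Benjamini-Hochberg adjustment (adjusted p = 0.0655).

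Cck, which encodes the precursor of cholecystokinin, climbed through the 2 weeks. Its DRG signal was -2.65, -2.35 and -2.49 at 0 d, -2.59, -2.83 and -2.78 at 1 d, -1.45, -1.24 and -1.13 on day 4, -0.57, -0.74 and -0.75 at 7 d, and -0.39, -0.38 and -0.23 at 14 d. From 1 d on, the ranges of the days follow each other without overlap. The change at 1 d was -0.23 (adjusted p = 0.163), and Cck rose by 1.22, 1.81 and 2.17 at 4, 7 and 14 d (SE 0.11; 2.33-, 3.51- and 4.49-fold; adjusted p = 1.39e-05, 3.65e-07 and 8.55e-08). The step from 1 d to 4 d was 1.46, 2.75-fold, and that from 4 d to 7 d was 0.59, which passed the adjusted p (0.039) and not the fold limit. With normexp and quantile normalization the 4 d change was 0.92, under 2-fold.

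Nts, the precursor of neurotensin and neuromedin N, was less settled. Its probe A_44_P1030161 measured -1.11, -2.01 and -2.52 at 0 d, -1.36, -1.45 and -0.95 at 1 d, -0.31, 0.54 and 0.67 on day 4, 0.20, 0.04 and 0.15 at 7 d, and 0.39, -0.09 and -0.38 at 14 d. The 0 d arrays spread over more than a log2 unit, 0 d replicate 1 being the highest, and all arrays from 4 d on lay above all of 0 d. The changes were 0.62 at 1 d (SE 0.34, adjusted p = 0.226) and 2.18, 2.01 and 1.85 at 4, 7 and 14 d (4.52-, 4.02- and 3.61-fold; adjusted p = 0.000841, 0.0013 and 0.0013). The probe whose sequence holds the codon pair between both peptides, A_44_P1030165, gave 0.59, 2.09, 1.94 and 1.86. Against 0 d replicate 1 alone both probes kept the 4 d call (1.41 and 1.33) and lost those of 7 d (1.24 and 1.18, adjusted p = 0.0519 and 0.0649) and 14 d (both 1.09, adjusted p = 0.0569 and 0.0577). After Benjamini-Hochberg adjustment the methods' t-test called neither probe on these 3 days (adjusted p from 0.0529 to 0.0952).

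After 1 d, the called steps between successive days in the ganglia were those from 1 d to 4 d. For 4 d against 1 d 6 of the 14 member probes were called, all higher, against 4.27% of all tested probes, and they were those of Gal, Npy, Vip, Cck and both Nts probes. The smaller Nts call, 1.51 at A_44_P1030165, was lost without DRG 4 d replicate 3 (1.30, adjusted p = 0.0545). For 7 d against 4 d limma called 0 of 14 member probes and 0.177% of all probes. At an unadjusted p under 0.05 it was 4 member probes, 2 in each direction. For 14 d against 7 d limma called 0 of 14 and 0.0972% of all probes, with 1 member probe higher and 2 lower at an unadjusted p under 0.05.

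No probe of Tac1, Sst, Calca or Calcb was called in DRG on any day. Tac1, the precursor of substance P and neurokinin A, measured 5.54, 5.51 and 5.44 at 0 d, 5.35, 5.47 and 5.35 at 1 d, 4.91, 5.28 and 4.97 on day 4, 4.77, 4.92 and 4.82 at 7 d, and 4.91, 4.70 and 4.82 at 14 d. All arrays from 4 d on lay below all of 0 d. The changes were -0.11, -0.44, -0.66 and -0.69 (SE 0.10), and the last 3 passed the adjusted p (0.00667, 0.000647 and 0.000316) without reaching 2-fold. Sst, the precursor of the inhibitory peptide somatostatin, measured 4.86, 4.80 and 4.63 at 0 d, 4.60, 4.63 and 4.60 at 1 d, 4.30, 4.38 and 3.89 on day 4, 4.49, 4.51 and 4.45 at 7 d, and 4.36, 4.37 and 4.34 at 14 d. All its later arrays lay below the lowest of 0 d, those of 1 d barely, and the changes were -0.15, -0.57, -0.28 and -0.41, of which those at 4 d and 14 d passed the adjusted p (0.00302 and 0.0126).

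The 3 Calca probes gave different changes in the same ganglia. The shared probe measured 4.80, 4.95 and 4.87 at 0 d, 4.63, 4.75 and 4.70 at 1 d, 4.18, 4.51 and 4.19 on day 4, 3.97, 4.06 and 4.14 at 7 d, and 4.01, 3.87 and 4.03 at 14 d, without overlap between 0 d and any later day. Its changes were -0.18, -0.58, -0.82 and -0.90, the last 1.87-fold (adjusted p = 4.82e-05). The Ensembl transcript probe differed from 0 d by 0.16, -0.01, -0.38 and -0.35, and neither late value passed the test (adjusted p = 0.061 and 0.0606). The variant 1 probe, at 0.62, 1.42 and 1.41 at 0 d and between 0.93 and 1.47 on all later arrays, differed by 0.27, -0.17, -0.02 and 0.14, and at 7 d and 14 d the sign turned when a single array was left out. Calcb measured 5.11, 5.18 and 5.14 at 0 d, 5.16, 5.26 and 5.34 at 1 d, 4.77, 5.07 and 4.57 on day 4, 4.55, 4.74 and 4.81 at 7 d, and 4.82, 4.68 and 4.74 at 14 d. The Calcb arrays from 4 d on lay below those of 0 d, with changes of 0.11, -0.34, -0.44 and -0.39 (SE 0.12), the last 3 at adjusted p of 0.0425, 0.0163 and 0.0177 and all under 2-fold.

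**Figure D2:**
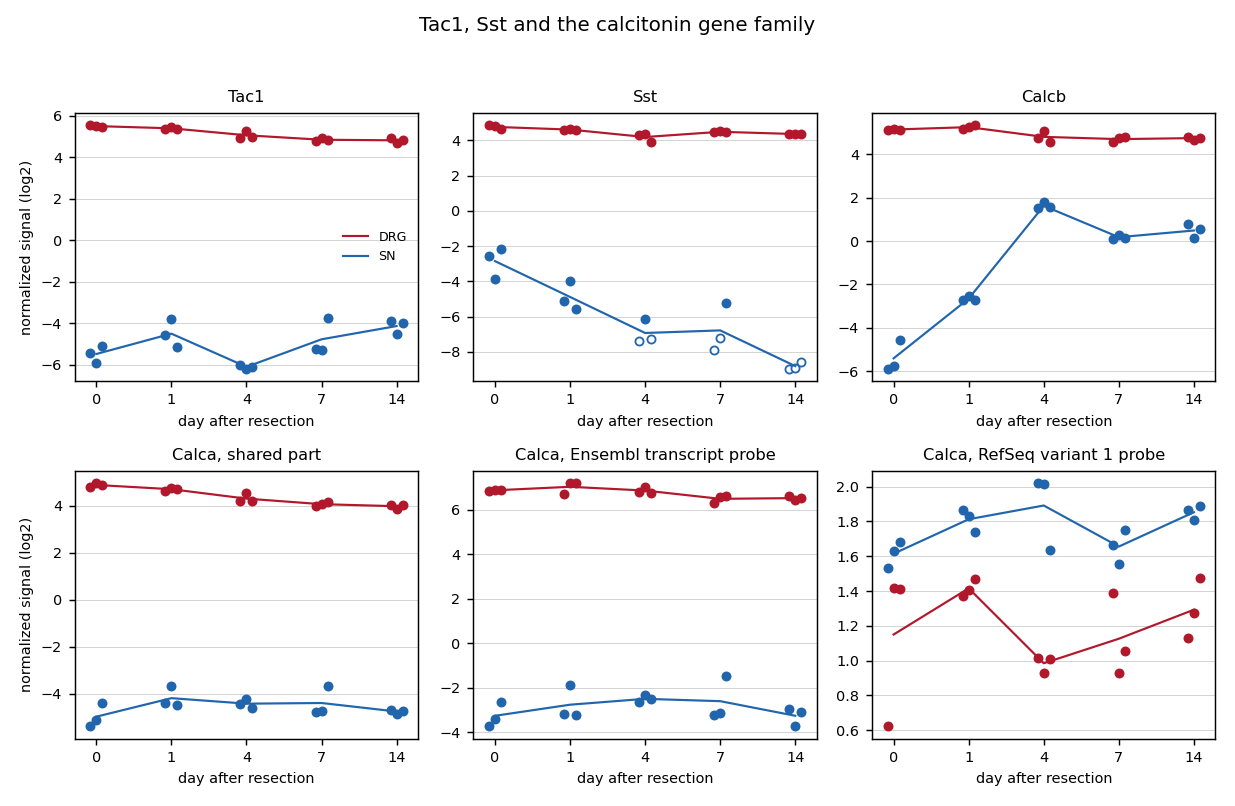
Normalized signal (log2, vertical) against day after resection (horizontal) for Tac1, Sst, Calcb and the 3 Calca probes, DRG in red and SN in blue; points are single arrays, lines join group means, and open points are arrays where the probe was not well above background. The SN line of Calcb climbs from -5.89 to -4.57 at 0 d to between 1.51 and 1.79 at 4 d, and that of Sst falls to below -8.5 at 14 d.

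Markers of the cell types in the ganglia were followed beside the peptides. Of 20 tested sensory neuron markers limma called none in DRG on any day, with 5, 13, 11 and 12 lower and 1 higher on each day at an unadjusted p under 0.05. Their median change was -0.05, -0.44, -0.34 and -0.41, and the mean signal over the list ranged from 4.18 to 4.21 at 0 d and from 3.79 to 3.93 at 14 d. The mean over 7 macrophage markers ranged from -2.56 to -1.67 at 0 d and from -0.93 to -0.82 at 7 d, with 0, 3, 5 and 4 of 7 called higher on the 4 days. That over 6 T cell markers went from between -5.38 and -4.86 at 0 d to between -3.52 and -3.30 at 14 d, with 0, 1, 4 and 4 of 6 higher. On a DRG 0 d array 2 to 3 of these 6 were well above background, and all 6 were at 7 d and 14 d. No satellite glia marker of 5 was called in DRG (at an unadjusted p under 0.05, 2 were higher at 1 d and 1 lower at 7 d). The mean over 8 sympathetic neuron markers ranged from -4.26 to -4.08 at 0 d and from -3.69 to -2.97 at 14 d, with 2, 2, 2 and 4 of 7 tested called higher. Only 3 to 7 of these 8 were well above background on a 0 d array, and 7 to 8 on a later array. The 0 d means of the T cell and sympathetic lists therefore include dim signals, and their part in these rises was not tested. The part of immune and sympathetic RNA in the DRG changes was not tested.

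In the nerve stump the order of the peptides was another one. Calcb rose strongly, Gal, Vip and Sst fell, Npy rose at 1 d, and dim signals of Adcyap1, Nts and Tac1 rose on some days. Of 13 tested member probes (the Nts probe A_44_P1030165 was too dim to be tested in SN), 4 were called higher and 3 lower at 1 d, 3 and 2 on day 4, 4 and 3 on day 7, and 3 and 3 on day 14. The counts of higher probes include Nts (A_44_P1030161) on all 4 days and Adcyap1 (A_44_P522701) at 1, 4 and 7 d. Both probes were not well above background on any SN 0 d array and were tested through brighter later groups. The background in SN was higher than in DRG, since 22.1%, 22.7%, 24.9% and 19.8% of the 35157 tested probes were called on these days. The median change of the 13 probes was 0.60, 0.51, 0.58 and 0.22, against 0.11, 0.15, 0.15 and 0.16 for all tested probes.

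**Figure D3:**
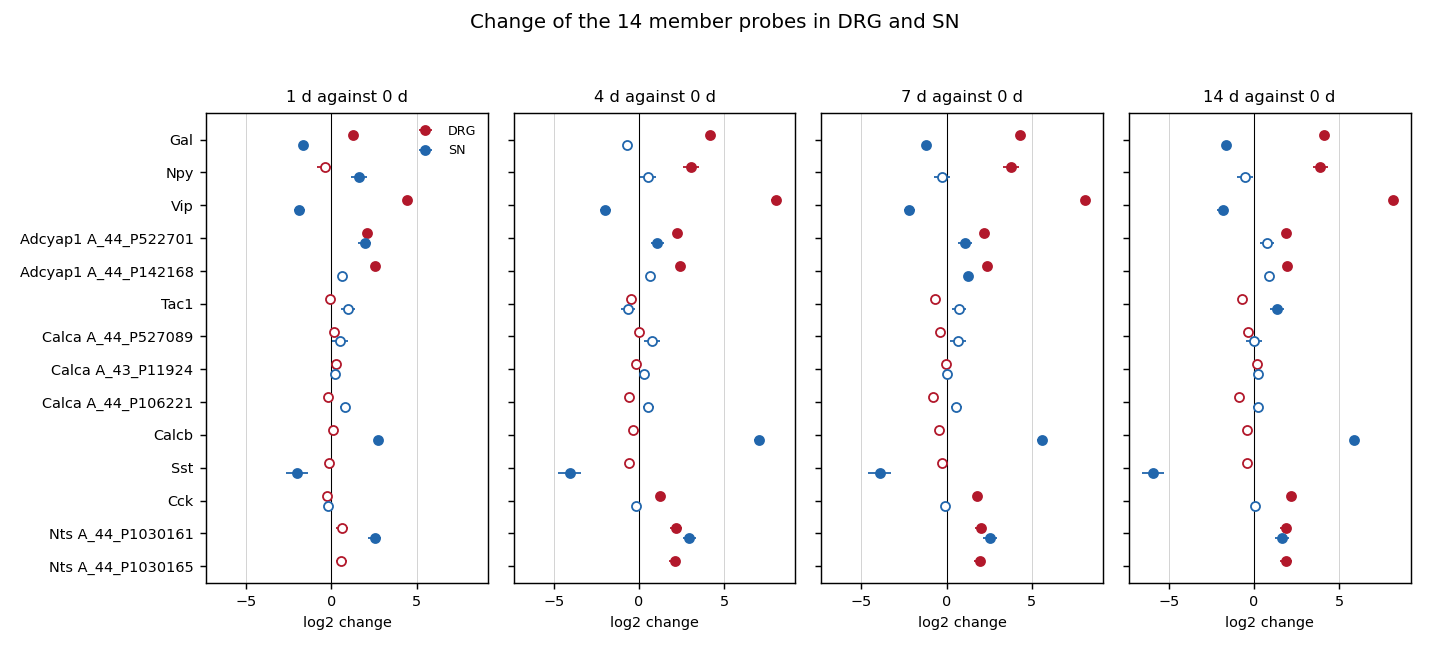
Change from 0 d (log2, horizontal, bars are SE) of the 14 member probes at 1, 4, 7 and 14 d, DRG in red and SN in blue; filled points were called and open points were not. Gal and Vip lie to the right of 0 in DRG and to the left in SN, and Calcb lies near 0 in DRG and reaches 7.04 in SN at 4 d.

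Calcb rose from near background. Its SN signal was -5.89, -5.78 and -4.57 at 0 d, -2.70, -2.55 and -2.71 at 1 d, 1.51, 1.79 and 1.56 on day 4, 0.11, 0.29 and 0.13 at 7 d, and 0.78, 0.13 and 0.55 at 14 d. No later array overlaps the 0 d arrays, and 4 d is the highest day. The changes were 2.76, 7.04, 5.59 and 5.90 (SE 0.28; 6.76-, 131-, 48.1- and 59.6-fold; highest adjusted p = 7.39e-06). From 1 d to 4 d Calcb rose 19.4-fold, by 4.28, and from 4 d to 7 d it fell by 1.45 on the log2 scale (2.73-fold, adjusted p = 0.00541). The call against 0 d held on all 4 days under all 19 alternatives, with the smallest changes, 1.23, 5.03, 3.69 and 3.99, after normexp and quantile normalization. No Calca probe was called in SN on any day. The shared Calca probe measured -5.39, -5.12 and -4.41 at 0 d, -4.40, -3.69 and -4.47 at 1 d, -4.42, -4.23 and -4.61 on day 4, -4.78, -4.71 and -3.69 at 7 d, and -4.71, -4.84 and -4.71 at 14 d. The Calca Ensembl transcript probe lay between -3.73 and -1.45 on all SN arrays, and the variant 1 probe between 1.53 and 2.02.

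Macrophage and T cell markers were also higher in SN on these days. All 7 macrophage markers were well above background on every SN array, and their mean ranged from -0.96 to -0.59 at 0 d, 0.83 to 1.23 at 1 d, 1.41 to 1.73 at 4 d, 1.15 to 1.43 at 7 d and 0.32 to 0.91 at 14 d, with 7, 7, 6 and 6 called higher. The mean over 6 T cell markers ranged from -4.57 to -4.29 at 0 d, -2.54 to -2.40 at 1 d, -0.99 to -0.88 at 4 d, -0.71 to -0.50 at 7 d and -1.32 to -0.63 at 14 d, with 4, 6, 6 and 6 higher. Of these 6, 4 to 5 were well above background on a 0 d array and all 6 on every later array. The mean over the sensory neuron markers was between -1.94 and -1.76 at 0 d and between -1.89 and -1.78 at 4 d, when 5 of the 20 were called higher and 6 lower. The part of these cells in the rise of Calcb was not tested.

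Gal and Vip were lower in the nerve on the days on which they rose in the ganglia. The SN signal of Gal was 2.32, 2.38 and 2.81 at 0 d, 0.82, 0.97 and 0.68 at 1 d, 1.77, 1.77 and 1.86 on day 4, 1.32, 1.23 and 1.31 at 7 d, and 0.63, 0.93 and 0.92 at 14 d. Every later array lay below those of 0 d. Gal fell by 1.68 at 1 d (SE 0.13, 3.20-fold, adjusted p = 9.68e-07), by 1.22 at 7 d (2.32-fold) and by 1.67 at 14 d (3.19-fold), while the 4 d difference of -0.70 passed the adjusted p (0.000477) and not the fold limit. The SN signal of Vip was -0.60, -1.72 and -0.32 at 0 d, -2.26, -2.94 and -3.12 at 1 d, -2.99, -2.90 and -2.70 on day 4, -2.71, -3.22 and -3.31 at 7 d, and -2.81, -2.85 and -2.50 at 14 d. All later Vip arrays lay below 0 d, by 1.90, 1.98, 2.20 and 1.84 in the mean. Vip fell 3.72-, 3.96-, 4.59- and 3.57-fold (SE 0.32, highest adjusted p = 0.000458). Both genes kept these calls under all 19 alternatives.

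Sst fell in SN toward the background. Its signal was -2.55, -3.87 and -2.14 at 0 d, -5.10, -3.98 and -5.58 at 1 d, -7.39, -6.14 and -7.26 on day 4, -7.89, -7.20 and -5.25 at 7 d, and -8.95, -8.90 and -8.57 at 14 d. It was well above background on 1 of 3 arrays of the 4 d and 7 d groups each and on none of the 14 d group. Sst fell by 2.03 at 1 d (SE 0.66, adjusted p = 0.0176), by 4.08 at 4 d (adjusted p = 0.000193) and by 3.93 at 7 d (adjusted p = 0.000256), sizes that rest on 2 of 3 arrays not well above background, and at 14 d it was at least 16.6-fold lower (adjusted p = 1.41e-05). The bound sets the dim arrays at the lowest signal that was well above background. The 1 d call was lost in 6 of 19 alternatives, among them the slide as a random block (adjusted p = 0.0958) and leaving out SN 0 d replicate 3 (-1.68, adjusted p = 0.0698). With normexp and quantile normalization the falls were 1.37, 1.85, 1.80 and 2.07 on the log2 scale, still called. At 7 d the fall was -4.70 without SN 7 d replicate 3.

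Markers of other tissue pieces also fell in SN on some of these days. The mean over 9 Schwann cell markers went from between 5.25 and 5.43 at 0 d to between 4.12 and 4.32 at 7 d, with 2, 5, 5 and 4 of 9 called lower. That over 7 mast cell markers, all well above background on every SN array, went from between 0.55 and 0.76 to between -0.72 and -0.41 at 7 d, with 3, 5, 5 and 4 lower. One of them, Kit, was higher at 1, 7 and 14 d at 1 of its 2 probes (1.98 at 1 d). That over 6 skeletal muscle markers went from between 3.59 and 7.63 at 0 d to between -0.72 and 1.59 at 4 d and back to between 3.21 and 4.91 at 14 d, with all 6 lower at both 4 d and 7 d and none at 1 d or 14 d, by limma and at an unadjusted p under 0.05 alike. The part of mast cells, Schwann cells and muscle in these falls was not tested.

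The SN changes of Nts and Adcyap1 were in dim signals. Nts probe A_44_P1030161 and Adcyap1 probe A_44_P522701 were tested only through later groups, in which they were brighter. Their p-values against 0 d are therefore conditional on the rise. Nts (A_44_P1030161) was not well above background on any 0 d array, at -7.19, -8.37 and -8.46, and measured -5.62, -5.75 and -5.05 at 1 d, -4.81, -4.91 and -5.42 on day 4, -5.45, -5.48 and -5.42 at 7 d, and -6.79, -6.86 and -5.45 at 14 d, where replicate 3 alone was well above background. It was at least 1.90-, 2.56-, 1.94- and 1.03-fold higher on the 4 days (adjusted p = 0.000157, 4.13e-05, 0.000132 and 0.00368). After normexp and quantile normalization its changes were 0.33, 0.57, 0.38 and 0.17 and no call was left, and the 14 d call was also lost in the methods' t-test (adjusted p = 0.113). Adcyap1 was likewise near background at its probe A_44_P522701, with -6.50, -6.98 and -8.33 at 0 d and -5.06, -5.38 and -5.50 at 1 d, at least 2.05-fold higher (adjusted p = 0.00106), a call lost after normexp (0.30) and in the adjusted t-test of the methods (adjusted p = 0.0501). At 4 and 7 d it was at least 1.12-fold higher on both days (adjusted p = 0.0328 and 0.0312), the groups overlapped, and the call held in 8 of 18 alternatives. The other Adcyap1 probe, A_44_P142168, measured -4.72, -4.97 and -4.82 at 0 d and -3.61, -3.57 and -3.60 at 7 d, when it rose by 1.24 (2.37-fold, adjusted p = 0.000615), against 0.60, 0.64 and 0.90 on the other days. That rise was under 2-fold after quantile normalization (0.78), in the authors' matrix (0.79) and after normexp (0.41). These dim rises went with more probes well above background on all later arrays than at 0 d, whose part in them was not tested.

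Npy rose in SN at 1 d alone. Its signal was 2.53, 2.96 and 1.21 at 0 d, 3.43, 3.75 and 4.36 at 1 d, 3.36, 2.84 and 2.03 on day 4, 1.58, 1.67 and 2.59 at 7 d, and 1.42, 2.15 and 1.47 at 14 d. The arrays of 1 d lay above those of 0 d, by 1.61 in the mean (SE 0.47, 3.05-fold, adjusted p = 0.0104), and the later days overlapped 0 d at 0.51, -0.29 and -0.55. The 1 d call was lost with the slide as a random block (adjusted p = 0.0614) and in the methods' t-test (adjusted p = 0.0894). Tac1 measured -5.44, -5.89 and -5.09 at 0 d, -4.57, -3.77 and -5.14 at 1 d, -5.99, -6.18 and -6.11 on day 4, -5.25, -5.29 and -3.76 at 7 d, and -3.90, -4.52 and -3.97 at 14 d. Its changes were 0.98, -0.62 and 0.71 up to 7 d and a called rise of 1.34 at 14 d (2.54-fold, adjusted p = 0.0151), which was lost under quantile normalization (0.81), in the authors' matrix (0.80), after normexp (0.37), with slide taken as a random block (adjusted p = 0.0657) and without SN 0 d replicate 2 (1.14, adjusted p = 0.0576). SN 1 d replicate 2 and SN 7 d replicate 3 were the highest of their days for Tac1 and for the shared and Ensembl transcript probes of Calca, and the mean over 20 sensory neuron markers was also highest there, -1.59 on the former and -1.37 on the latter array. Cck was called on no day in SN, with arrays between -1.92 and -1.39 and changes of -0.19, -0.16, -0.08 and 0.04.

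After 1 d, the called steps between successive days in the nerve were those of Calcb, Tac1 and Sst. For 4 d against 1 d 1 of 13 member probes was called higher and 2 lower, against 8.53% of all tested probes. Calcb was the higher one, and Tac1 (-1.60, 3.03-fold) and Sst (-2.04, adjusted p = 0.029) were lower. The falls of Tac1 and Sst were lost after normexp (-0.50 and -0.49) and when slide was a random block, and that of Sst also without SN 1 d replicate 1 or 2 or SN 4 d replicate 1 or 3 (-2.15, -1.59, -1.81 and -1.88). For 7 d against 4 d 1 was higher (Tac1, 1.33, adjusted p = 0.0457) and 1 lower (Calcb), against 2.60% of all probes, and the Tac1 call was kept in 4 of 17 alternatives. For 14 d against 7 d limma called 0 of 13 and 1.65% of all probes, with 3 lower at an unadjusted p under 0.05.

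In the uninjured animals most peptides were higher in the ganglia than in the nerve. Of 14 member probes tested over both tissues at 0 d, 9 were lower and 1 higher in SN, against 36.2% of 36329 probes called in either direction, and the median difference (SN minus DRG) was -5.64 for the members and 0.14 for all probes. The log2 differences were -10.97 for Tac1, -10.55 for Calcb, -10.12 and -9.85 for the Ensembl transcript and shared probes of Calca, -7.61 for Sst and -5.08 for the Adcyap1 probe A_44_P142168. At the other Adcyap1 probe SN was at least 274-fold lower and at the 2 Nts probes at least 23.0- and 12.1-fold lower. Vip was the exception, higher in SN by 2.48 (5.58-fold, adjusted p = 1.48e-07). Gal (-0.64), Npy (-1.03, adjusted p = 0.066), Cck (0.91) and the Calca variant 1 probe (0.46) were not called, although Cck was with the slide as a fixed block (1.07) and without SN 0 d replicate 2 (1.04). Of 20 sensory neuron markers 19 were called lower in SN by limma and 20 were lower at an unadjusted p under 0.05, with none higher by either count, and of 9 Schwann cell markers 6 were higher and none lower, as the labelled tissues hold. Between the tissues at 0 d, the variant 1 probe of Calca therefore did not follow the other probes of its gene. Differences between the Calca probes over the days were not tested.

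Whether a peptide changed differently in the nerve and in the ganglia was tested as the SN change minus the DRG change in 1 fit over the 30 arrays, called at an adjusted p under 0.05. Of 13 member probes 8 were called at 1 d (4 in each direction) and 9 at 4 d (2 higher, 7 lower). At 7 d it was 10 (3 and 7) and at 14 d it was 9 (3 and 6). For all 33796 probes the share was 35.6%, 45.3%, 38.1% and 32.3%. At 7 d the difference was -10.33 for Vip, -5.53 for Gal, -4.08 for Npy, -3.65 for Sst and -1.89 for Cck, and it was 6.03 for Calcb. These 6 members differed in the same direction at 4 d and 14 d, and Npy had the opposite sign at 1 d (2.02, adjusted p = 0.0257), when it rose in SN and not in DRG. With the slide as a fixed block, an alternative added after the data were seen, 6, 7, 8 and 7 member probes were called. The Calca variant 1 probe gained a call there at 1 d (-0.55, adjusted p = 0.0274) and 7 d (-0.73, adjusted p = 0.0031). Calls lost there were Npy at 1 d (1.75, adjusted p = 0.177), Sst at 1 d (-1.78, adjusted p = 0.295), Tac1 at 7 d (1.47, adjusted p = 0.137), the shared Calca probe on all 4 days (0.95, 0.86, 1.41 and 1.09), and Adcyap1 at 4 and 7 d for one probe (-0.97 and -1.28) and at 14 d for the other (-0.40).

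The receptors of these peptides were followed in both tissues. Of 30 receptor genes listed, 28 had a probe and 23 were tested in DRG, and 3, 3, 4 and 6 were called higher and 0, 0, 1 and 1 lower on the 4 days, against the 7.60%, 6.55%, 6.91% and 13.5% of all tested DRG probes. At an unadjusted p under 0.05 in limma 4 and 5 receptors were lower at 1 d and 4 d. Cckbr, the receptor for cholecystokinin and gastrin, measured -4.49, -5.20 (not well above background) and -4.46 at 0 d, -2.51, -2.51 and -2.38 at 1 d, -0.36, -0.43 and -0.16 on day 4, 0.37, 0.38 and 0.09 at 7 d, and -0.09, 0.18 and 0.14 at 14 d. It rose by 2.25, 4.40, 5.0 and 4.80 (31.9-fold at 7 d, adjusted p = 2.44e-09), and so already at 1 d, when Cck itself was not called. Of the somatostatin receptors, Sstr3 rose in DRG by 1.5, 3.47, 3.52 and 3.63 (12.4-fold at 14 d) and Sstr4 by 1.26, 1.15, 1.33 and 1.63. Sstr5 rose at 14 d (1.64), and Sstr1 fell by 1.14 at 7 d and by 1.04 at 14 d. The galanin receptor Galr3 was at least 2.75-fold higher at 14 d, and Npy4r (Ppyr1 in the array files) at least 1.01-fold.

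**Figure D4:**
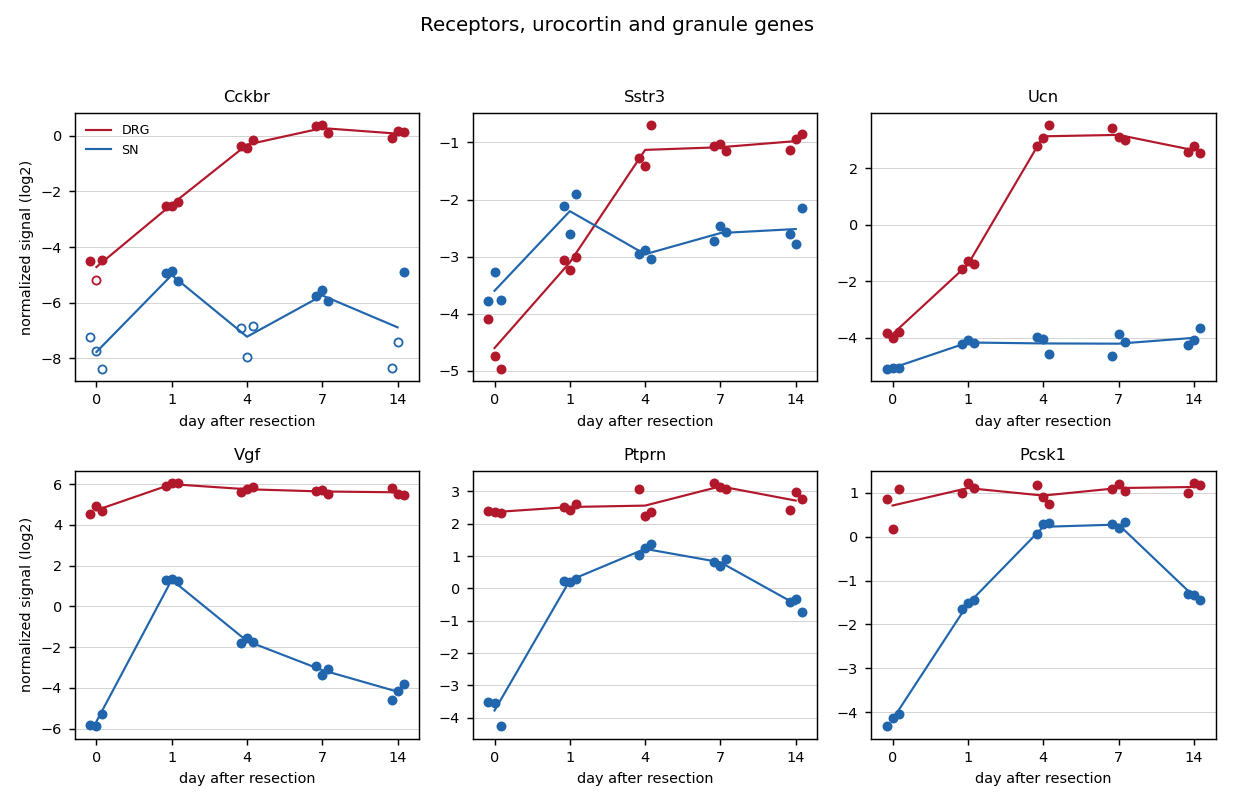
Normalized signal (log2, vertical) against day after resection (horizontal) for the receptors Cckbr and Sstr3, the peptide gene Ucn and the granule genes Vgf, Ptprn and Pcsk1, DRG in red and SN in blue; points are single arrays, lines join group means, and open points are arrays where the probe was not well above background. Cckbr, Sstr3 and Ucn climb in DRG, and Vgf, Ptprn and Pcsk1 climb in SN, where Vgf is highest at 1 d.

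In SN 24 receptor genes were tested, and 7, 5, 9 and 6 were higher and 1, 2, 3 and 2 lower. Of all tested SN probes 22.1%, 22.7%, 24.9% and 19.8% were called on the 4 days. Tacr2, the neurokinin A receptor, rose by 2.22 at 1 d (4.67-fold) and was called on all 4 days (1.36, 1.59 and 1.17 later). Sstr2 rose by 2.12 at 1 d (4.34-fold), 1.43 at 4 d and 1.1 at 7 d. Sstr3 rose at 1, 7 and 14 d (1.40, 1.01 and 1.08), Sstr5 at 7 d (1.42), Tacr1, the substance P receptor, at 14 d (1.2), and Ramp3, a partner protein of the calcitonin receptor family, at 4 and 14 d (both 1.14). Sstr1 fell on all 4 days, by 1.46, 1.41, 1.59 and 1.61 on the log2 scale. Npy1r fell at 7 d at both its probes, by 1.51 and 1.82, and Ntsr2, a neurotensin receptor, fell by 1.42, 1.81 and 1.92 at 4, 7 and 14 d. Cckbr, Galr1 and Vipr1 were not well above background in SN at 0 d and were at least 2.63-, 1.58- and 1.2-fold higher at 1 d. Npy4r, also not well above background in SN at 0 d, was at least 1.22-fold higher at 7 d and at least 1.32-fold at 14 d.

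The genes for cutting and storing peptides were followed as well. Of 24 tested, 1, 2, 0 and 1 were called higher and none lower in DRG by limma (all probes 7.60%, 6.55%, 6.91% and 13.5%), with 2, 6, 7 and 8 lower and 2, 5, 3 and 6 higher at an unadjusted p under 0.05. Vgf, a granin-like peptide precursor induced by neurotrophins, rose in DRG by 1.28 at 1 d and 1.03 at 4 d. In SN 4, 6, 7 and 4 rose and 2, 5, 4 and 2 fell (all probes 22.1%, 22.7%, 24.9% and 19.8%). Vgf rose there from -5.81, -5.90 and -5.26 at 0 d to 1.31, 1.36 and 1.23 at 1 d, a rise of 6.96 (SE 0.20, 124-fold, adjusted p = 1.16e-09), followed by 3.95, 2.52 and 1.46. Ptprn, a dense-core granule membrane protein, rose by 4.03, 5.0, 4.59 and 3.29 (32.0-fold at 4 d), and the prohormone convertase Pcsk1 by 2.63, 4.39, 4.44 and 2.81 (21.8-fold at 7 d), with 2.39, 4.16, 3.74 and 2.43 at its second probe. The granin Chgb fell in SN by 1.35, 2.57, 1.75 and 2.38 (5.96-fold at 4 d), and the convertase Pcsk6 fell by 2.36 at 14 d. Ptprn2 rose in DRG at 14 d at one probe (2.34) and not at its other (0.16).

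Among 44 other neuropeptide genes, 41 had a probe and 36 were tested in each tissue. In DRG 3, 6, 7 and 8 were higher and 0, 2, 1 and 1 lower, with 2 lower at 1 d at an unadjusted p under 0.05. Of all tested DRG probes 7.60%, 6.55%, 6.91% and 13.5% were called. Ucn, which encodes urocortin, a ligand of the corticotropin-releasing factor receptors, was the largest of those measured on all arrays, from -3.82, -4.00 and -3.79 at 0 d to 3.43, 3.10 and 3.01 at 7 d. It rose by 2.46, 7.00, 7.05 and 6.51 (133-fold at 7 d, adjusted p = 1.09e-10). Avp rose in DRG at 14 d (1.76) and Agrp at 4 d (1.2), while Tac4 fell at 4 d (-1.35). Penk (Penk1 in the array files), the proenkephalin gene, fell in DRG by 1.57, 1.76 and 1.83 at 4, 7 and 14 d and rose in SN by 2.62, 3.30 and 1.70 (9.88-fold at 7 d) at its probe A_42_P749184. Its probe A_44_P497807, not above background at 0 d, gave other values (2.37 in DRG and 2.53 in SN at 1 d). In SN 12, 12, 14 and 12 were higher and 0, 3, 2 and 3 lower, with 9 lower at 1 d at an unadjusted p under 0.05. Of all tested SN probes 22.1%, 22.7%, 24.9% and 19.8% were called. Several of the genes called higher in SN, among them Galp, Iapp, Nmu, Pmch and Trh, were not well above background on any 0 d array. Pnoc, the nociceptin precursor, rose in SN by 1.68, 3.46 and 3.53 at 4, 7 and 14 d, and Trh, for thyrotropin-releasing hormone, was at least 29.7-, 21.8-, 22.0- and 6.2-fold higher on the 4 days.

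The DRG peptides can be set beside genes known to respond to axon injury. Of 13 such genes 10, 12, 12 and 12 rose in DRG, with a median of 2.89, 2.82, 2.81 and 2.61. None fell in limma, nor was any lower at an unadjusted p under 0.05. The share of all tested DRG probes called was 7.60%, 6.55%, 6.91% and 13.5%. Atf3, a transcription factor of injured neurons, rose by 4.53 at 1 d, the secreted protein gene Reg3b by 4.93 at 4 d and Csrp3 by 6.14 at 7 d. In SN 3, 3, 4 and 4 of the same 13 rose and 0, 1, 1 and 1 fell, with 3 lower at 1 d at an unadjusted p under 0.05. There the share of all tested probes called was 22.1%, 22.7%, 24.9% and 19.8%. Reg3b and Sox11, among those that rose in SN, were not well above background on any 0 d array. Over the 15 DRG arrays, the named genes whose signal was most like that of Gal were Il24 (Pearson r = 0.997) and Ucn (r = 0.996). Those most like Vip were Cldn4 (0.997) and Crisp3 (0.995), for Npy Dapp1 (0.983) and Clec2d (0.981), for Adcyap1 Flrt3 (0.992), for Cck Zcwpw1 (0.986) and Neurl3 (0.983), and for Nts Rab31 (0.971). Tac1 was most like Atp2b2 (0.982) and the shared probe of Calca (0.981), Calcb most like Tspan8 (0.932) and Kcnip3 (0.930), Sst most like Kcnma1 (0.944) and Epha6 (0.929), and the Calca Ensembl transcript probe most like Gskip (0.920). These points share arrays and days, and the correlations are a description only.

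Promoter sequence was at hand for 8 of the 10 members, from RefSeq on assembly GRCr8, and Calcb and Cck were not matched. In the 250 bases before the start, on both strands, none of the 8 held TGACGTCA, the full cyclic AMP response element, which 1.59% of 33469 promoters held. None held TTCNNNGAA, the spaced palindrome bound by STAT factors, found in 7.67%. The window depends on the annotated start of each gene, and sequence before other starts or further away was not searched. An absence here therefore does not show that a gene lacks the element. TGACTCA, the AP-1 element, read as TGAGTCA on the other strand, was found in 4.05% of all promoters and in 1 of the 8, that of Nts, at 212 bases before the start. No other motif searched overlaps it, and a match is a description of these letters. The Nts stretch is shown because it was the one with a match, with the match in capitals (chr7:39460889-39461138, GRCr8, minus strand).
Nts promoter: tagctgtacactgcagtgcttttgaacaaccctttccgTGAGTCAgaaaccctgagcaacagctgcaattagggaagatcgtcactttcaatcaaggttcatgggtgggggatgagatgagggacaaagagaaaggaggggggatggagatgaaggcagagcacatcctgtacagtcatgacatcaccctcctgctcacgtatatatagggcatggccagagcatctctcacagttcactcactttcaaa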

How the data were processed

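The intensity values were read from the scanner images by the authors with Agilent Feature Extraction 10.5.1.1 and deposited per array. Per the file headers, that program subtracted background from each spot and removed spatial trends, without scaling arrays to each other. The log2 values of the matrix deposited by the authors are quantile-normalized, and they served as an alternative.

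From the 45018 spots of an array, 43379 non-control spots gave 41012 probes. Outlier spots were left out, and log2 processed intensities were averaged per probe (263 probes have several spots, 672 values are missing) and the array's 75th percentile was subtracted. No spot was saturated. Probes well above background (50% or more of their spots) on all 3 arrays of a day were tested, 34968 in DRG and 35157 in SN. Tests used limma 3.58.1 in R 4.3.3 with statmod 1.5.0 and data.table version 1.17.8, on the 15 arrays of a tissue, or on all 30 for differences between tissues, and the scripts were tested on simulated data. Precision is limited by the 3 arrays of a group. Where a group was dim on all its arrays, folds are bounds against the lowest signal well above background. Replicates correlated at 0.985 to 0.997, and none were identical.

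Symbols were updated through RefSeq accessions (13007 of 13841 matched, 3741 changed). Named genes are all member probes, the called receptors, from each list up to 3 of the largest rises and falls (markers of cell types are given by counts), and genes with the highest Pearson r with a member. The members and gene lists were chosen with earlier results of these data known. Alternatives were other background corrections and normalizations, filters, the methods' t-test at 2-fold, blocks for slide and replicate number, and leaving out arrays.

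Labels and study text differ in the RNA kit and the number of rat groups, and the study text calls the operation a transection. Nerve samples of the first hours were not analysed here.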

Additional observations from a re-analysis of the deposited data

Results flagged for a closer look

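The change from 0 d differed between SN and DRG, by the interaction test in limma over the 30 arrays, for 36 pairs of a member probe and a day. Values are SN change minus DRG change on the log2 scale, and no explanation was weighed.

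Vip had the largest negative differences, -6.34, -10.01, -10.33 and -10.02 at 1, 4, 7 and 14 d. Gal followed with -2.95, -4.88, -5.53 and -5.81, and both genes rose in DRG and were lower in SN on each of these days. Npy differed by 2.02 at 1 d and by -2.54, -4.08 and -4.45 later. Sst differed by -1.88, -3.50, -3.65 and -5.55, with its fall in SN, where it was well above background on 1 of 3 arrays at 4 d and at 7 d and on none at 14 d, so that these sizes rest on dim arrays. After normexp and quantile normalization the last 3 were -1.15, -1.47 and -1.57. Cck differed by -1.38, -1.89 and -2.13 at 4, 7 and 14 d, with its rise in DRG. Adcyap1 differed at its probe A_44_P142168 by -1.97, -1.74, -1.12 and -1.03 on the 4 days, and at A_44_P522701 by -1.14 at 4 d and -1.10 at 7 d.

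Calcb had the largest positive differences, 2.65, 7.37, 6.03 and 6.29. The shared Calca probe differed by 0.97, 1.13, 1.40 and 1.12, Tac1 by 1.36 at 7 d and 2.03 at 14 d, and Nts (A_44_P1030161) by 1.91 at 1 d. No SN 0 d array of this Nts probe was well above background, and after normexp and quantile normalization the difference was -0.18. At 1 d the count of such member probes was 8 and it was 5 without DRG 0 d replicate 2.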

How the results depend on the processing

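Of 2812 checks of single probes under an alternative, 2624 kept direction and side of the threshold, 138 lost a call, 32 gained one and 18 turned sign. The total holds 1146 refits without single arrays. It also holds probes that were not called, which keep their side by staying uncalled, and the setting with no fold limit, which can lose no call. The methods' t-test after adjustment lost the call in 13 of 87 checks. The number of members called in SN for 7 d against 4 d (2) became 1 after quantile normalization, after normexp and quantile, in the authors' matrix, with only the arrays of both groups in the fit, with the slide as a random block, with the replicate block, and without any one array (1 to 1). After normexp and quantile, SN counts were 3 at 4 d (5), 4 at 7 d (7) and 1 for 4 d against 1 d (3), and this last was also 1 with the slide as a random block. Requiring probes well above background in both groups left 2 at 4 d and 4 at 7 d in SN. The methods' t-test after adjustment called 5 in DRG at 4 d (8) and 4 in SN at 1 d (7). With no fold limit the counts were 10 for DRG 4 d against 1 d (6), 1 for DRG 7 d against 4 d (0), 8 for SN 4 d (5) and 1 for SN 14 d against 7 d (0), and this last ranged from 0 to 1 without single arrays. The tissue difference at 1 d ranged from 5 to 8 member probes without single arrays. The cause of these shifts was not tested.

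Sign turns were as follows. With normexp and quantile they were -0.016 for Calcb in DRG at 1 d, -0.063 for Adcyap1 (A_44_P142168) in SN at 1 d and -0.18 for the tissue difference of Nts at 1 d (1.91 before). In DRG without 0 d replicates 2 and 3, chosen after seeing the data, they were 0.61 for Npy and -0.14 and -0.18 for the Nts probes at 1 d, 0.36 and 0.50 for the Calca variant 1 probe (A_43_P11924) at 4 and 7 d, and 0.038 for the Calca probe A_44_P527089 at 4 d. Without single arrays, DRG changes ranged from -0.94 to 0.058 for Npy at 1 d, from -0.12 to 0.28 at 14 d and from -0.29 to 0.11 at 7 d for Calca A_43_P11924, and from -0.099 to 0.052 at 4 d for A_44_P527089.

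Same-numbered arrays were not paired, since 4 of 24 correlations within a tissue and 4 of 15 between tissues were over 0.1. The replicate block ended 1 call, that of Tac1 in SN for 7 d against 4 d (1.33, adjusted p = 0.0661), and changed no other. Slide or scan day as a fixed block could not be estimated for a day against 0 d. The slide correlation was 0.02 in DRG and 0.27 in SN. Signals near background set the folds of Nts, Adcyap1 and Sst in SN.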
